A study of Mus musculus with 6 samples.

Results

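The genes described here were the heat shock proteins and chaperones of splenic regulatory T (Treg) cells. They were taken by symbol from the count matrix and comprised the Hspa, Hspb, Hspd, Hspe and Hsph genes, the Hsp90 genes, the Dnaja, Dnajb and Dnajc genes, Tcp1 and the Cct genes. This gave 83 of the 24421 genes in the matrix, including Hspbap1, which binds a heat shock protein but is not itself a chaperone, and Hspb11, known as a subunit of the intraflagellar transport complex. RNA-seq libraries of 3 KO mice (genotype Foxp3Cre miR-142fl/fl) were compared with those of 3 WT mice (Foxp3Cre), and each library came from a single mouse. All 6 donors were 8- to 11-week-old female C57BL/6 mice, and all of them carried the Foxp3Cre allele, which expresses a YFP-Cre fusion from the Foxp3 locus. CD4+YFP+ cells were sorted from the spleen without further treatment. In KO mice Cre removes miR-142 in Foxp3-expressing cells, so other cell types keep this miRNA, and these mice develop an autoimmune disease.

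Chaperones are proteins that keep other proteins from clumping and help them to reach their folded shape. Hsp70 proteins bind exposed stretches of a client in a cycle driven by ATP, J proteins (the Dnaj genes) bring clients to Hsp70 and start ATP hydrolysis, and Hsp110 proteins exchange the nucleotide. Hsp90 acts later, on clients such as kinases and hormone receptors, and the CCT (TRiC) ring closes around actin, tubulin and other cytosolic proteins. Stress-inducible members are switched on by the heat shock factor Hsf1, which binds heat shock elements, whereas the chaperones of the endoplasmic reticulum (ER) are switched on by the unfolded protein response.

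miR-142 yields 2 mature miRNAs that are abundant in blood cells, miR-142a-3p and miR-142a-5p. Both are shown because the 4 largest called rises described below fell on genes whose 3′ untranslated regions (3′ UTRs) hold matches to them. A match to either was common, present in 4153 of the 11116 tested genes with a 3′ UTR. The 3′ UTRs of these 4 risers are 2890 to 8088 bases long, and whether miR-142 acts on them was not tested. Dnajb14 and Dnajc25 hold matches to miR-142a-5p only. The paper reports that this form is the less abundant in Treg cells. It found targets of the other form enriched among up-regulated genes, but not those of this form. In the RefSeq sequences below, capitals mark the seed, bases 2 to 8.
miR-142a-3p: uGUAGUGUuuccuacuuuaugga
miR-142a-5p: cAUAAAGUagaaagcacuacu

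The longest annotated 3′ UTR of each gene was searched for the complement of these seeds, and for miR-142a-3p also for that of the seed shifted by 1 base toward the 3′ end, since this miRNA exists with 2 start positions. A site was either the full 7-base complement, or its last 6 bases followed by A, or both together (an 8-base site). The sites of the 4 members with the largest rises in KO Treg cells are listed with the bases of the site in capitals. They are read 5′ to 3′ on the strand of the transcript, with positions in GRCm38 (mm10). An A that follows the last 6 bases belongs to the site as defined. For miR-142a-5p and for the shifted seed this A does not pair with the miRNA.
Hspa12a, miR-142a-3p site, chr19:58795858-58795864, minus strand: ggcttgttCACTACAagatagat
Hspa4l, shifted miR-142a-3p site, chr3:40790068-40790074, plus strand: ctgctgcgACACTAAtgctaagc
Hspa4l, shifted miR-142a-3p site, chr3:40792010-40792016, plus strand: gctgacttACACTAAgattctac
Hspa4l, miR-142a-5p site, chr3:40790737-40790743, plus strand: agctaaatCTTTATActaaatgc
Hspa4l, miR-142a-5p site, chr3:40794771-40794777, plus strand: ccctttccCTTTATAtttgagat
Dnajb14, miR-142a-5p site, chr3:137908949-137908955, plus strand: aaaacaaaACTTTATgtaaaatc
Dnajb14, miR-142a-5p site, chr3:137913729-137913735, plus strand: ttttatctCTTTATAcataaaca
Dnajc25, miR-142a-5p site of 8 bases, chr4:59022834-59022841, plus strand: cccttaaaACTTTATAcagaagac
Dnajc25, miR-142a-5p site, chr4:59023601-59023607, plus strand: aagtgtgtCTTTATActtatgga

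Total counts ranged from 13883069 to 24042994 per library. Mir142 had 0 counts in all 6 libraries, and Mir142b, the antisense annotation over the targeted locus, had 147, 101 and 105 counts in WT replicates 1, 2 and 3 against 7, 5 and 5 in KO replicates 1, 2 and 3. All 8 Treg cell markers were present, and their summed level was 5592 to 6336 CPM (read counts relative to library size, normalized by TMM) in WT and 7584 to 8558 CPM in KO libraries. KO replicate 1 stood apart from the other 5 libraries. Its summed markers reached 982 CPM for neutrophils, 3819 CPM for monocytes and macrophages and 2347 CPM for B cells, against at most 56.1, 433 and 285 CPM elsewhere. Each of these lists was led by this library, in 11 of 13, 13 of 13 and 10 of 10 genes. Its cycling cell markers (876 CPM) also exceeded those of all other libraries (at most 483 CPM), and its CD8 and NK cell (105 CPM) and erythroid (37.9 CPM) markers did so as well. The part of other cell types in the chaperone values was not tested. In bulk RNA, fewer cells of a type and less RNA per cell cannot be told apart.

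A gene was tested when it exceeded 1 CPM in at least 3 libraries, which held for 11658 genes and for 68 of the 83 members. Of the 15 others, Hspb2, Hspb3, Dnajc5b and Dnajc5g had 0 counts in all 6 libraries, where a floor of 3 counts corresponds to 0.125 to 0.216 CPM. The remaining untested members were Hspb1, Hspb7, Hspb8, Hspb9, Hspa12b, Cct6b, Cct8l1, Dnajb3, Dnajb7, Dnajb8 and Dnajc22, none above 0.924 CPM in any library. Thus 6 of the 8 genes grouped here as small heat shock proteins, Hspb1 (Hsp27) among them, were too low to be tested in these Treg cells. This group counts Hspb11, which was tested along with Hspb6. Per kilobase of exon, Hsp90ab1, the constitutive cytosolic Hsp90, was the most abundant member in WT Treg cells with 588 RPKM. Hspa5 (BiP, the Hsp70 of the ER) followed with 175 RPKM and Cct2 with 124 RPKM. Hspa12a stood last of the 68 in WT with 0.399 RPKM.

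Of the 68 tested members 8 rose and 1 fell in KO Treg cells, taking an FDR (Benjamini-Hochberg) under 0.05 in the quasi-likelihood (QLF) test of edgeR as the threshold. These 9 are 13.2% of the tested members, against 18.8% of all tested genes called in either direction. All tested genes were called higher in 11.6% and lower in 7.27%, that is 1350 and 847 genes (1064 and 1201 when libraries were scaled by size alone). The median log2 fold change, KO over WT, was 0.02 over the members and 0.02 over all tested genes, and 35 members had positive and 33 negative values. KO and WT libraries did not overlap for 18 members, 14 with KO above and 4 with KO below, against 41.0% of all tested genes in either direction, 22.2% with KO above and 18.8% with KO below. Of the 59 members not called, 34 had a 95% confidence interval within 1.5-fold in both directions.

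**Figure D1:**
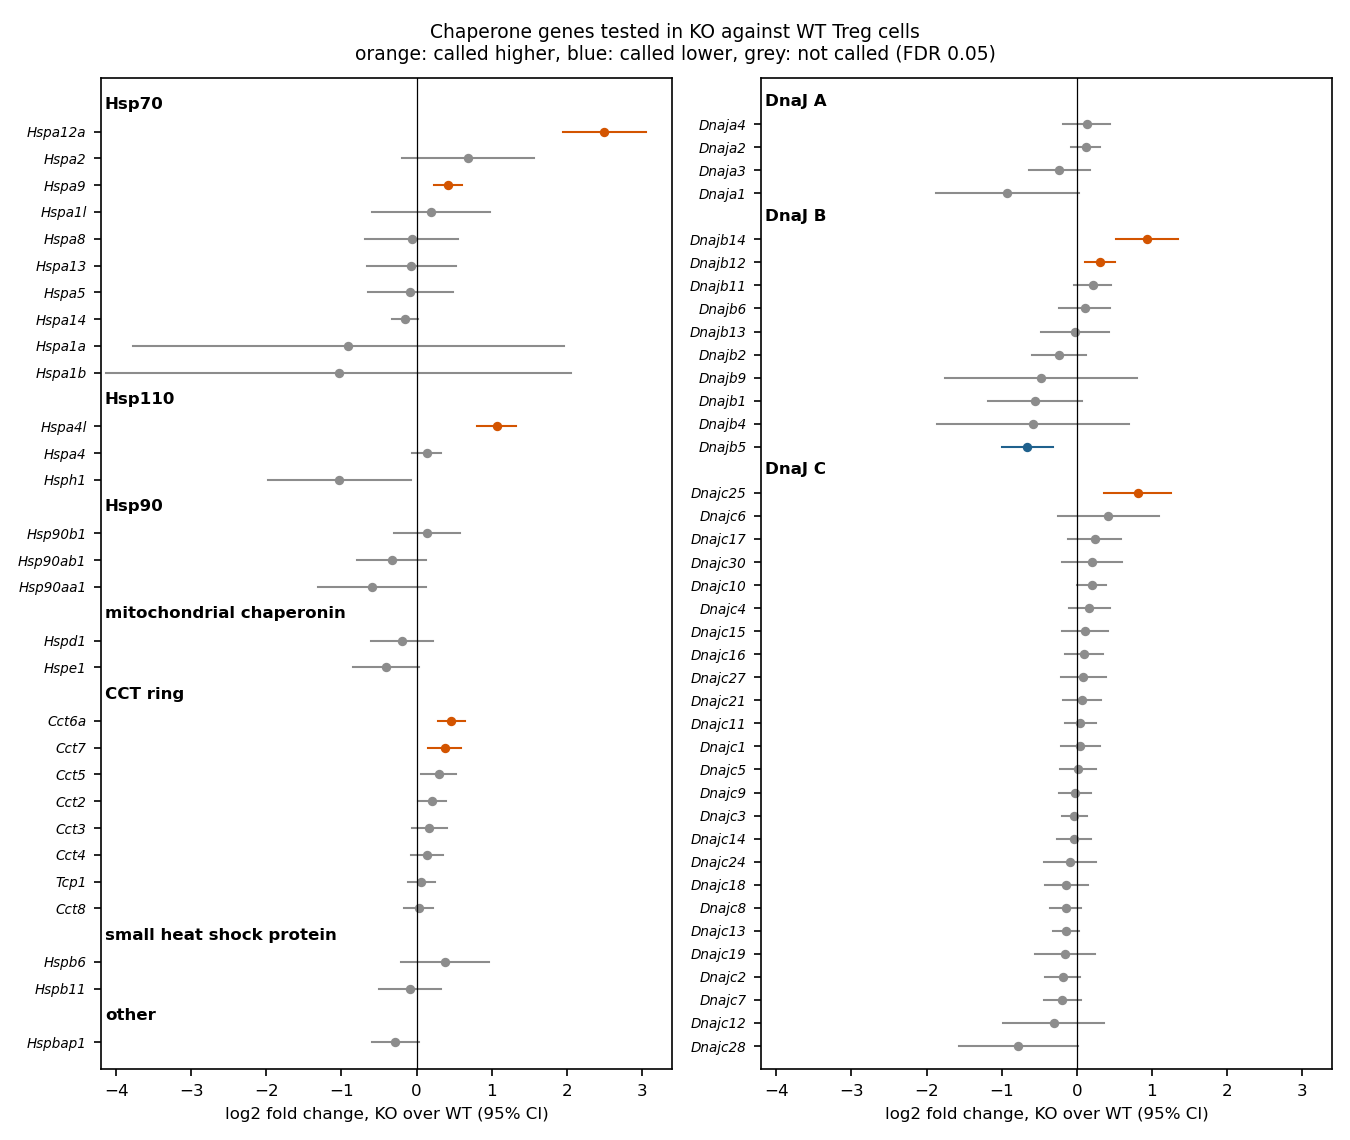
Log2 fold change (KO over WT, horizontal axis) with its 95% confidence interval for the 68 tested members, grouped by family. The 8 members called higher (orange) lie between 0.31 and 2.50, the one called lower (blue) at -0.66, and the intervals of Hspa1a and Hspa1b are the widest.

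Among the Hsp70 proteins, Hspa12a and Hspa9 rose and the other 8 tested members did not pass the test. Hspa12a, a distant relative of the Hsp70 family, had 3.76, 3.48 and 3.76 CPM in WT replicates 1, 2 and 3 and 24.0, 24.0 and 14.3 CPM in KO replicates 1, 2 and 3. All 3 KO libraries lay far above all 3 WT libraries. The log2 fold change was 2.50 (SE 0.24, FDR = 0.00129), the largest among the members. This call held under all 15 alternative fits tried, with log2 fold changes between 2.37 and 2.69. The gene (chr19:58795750-58943654) is on the minus strand.

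Hspa9 (mortalin), the Hsp70 of the mitochondrial matrix, had 176, 167 and 188 CPM in WT and 232, 239 and 238 CPM in KO libraries, which did not overlap. Its log2 fold change was 0.42 (SE 0.08, FDR = 0.0141). The call was lost without WT replicate 1 or without WT replicate 2. Hspd1 and Hspe1 (Hsp60 and Hsp10), which form the folding chamber of the same compartment, did not pass the test, with log2 fold changes of -0.19 and -0.41.

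Hspa8, the constitutive cytosolic Hsp70, had 242, 317 and 375 CPM in WT and 287, 200 and 406 CPM in KO libraries. Hspa5 had 503, 753 and 970 CPM in WT and 838, 589 and 673 CPM in KO libraries. For both genes the groups overlapped, with log2 fold changes of -0.06 (95% confidence interval -0.69 to 0.56) and -0.08 (-0.65 to 0.48), and the sign turned when single libraries were left out.

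Hspa4l rose in the Hsp110 family, the nucleotide exchange factors of Hsp70. It had 35.5, 42.4 and 39.3 CPM in WT and 81.2, 74.8 and 89.8 CPM in KO libraries, without overlap. Its log2 fold change was 1.07 (SE 0.11, FDR = 0.00176), and it was called under all 15 alternatives (0.98 to 1.14). The gene lies at chr3:40744495-40796103. The closely related Hspa4 changed by 0.14 on the log2 scale (SE 0.08, FDR = 0.286) and was not called, although its 3′ UTR also holds 2 shifted miR-142a-3p sites. Hsph1, the stress-inducible member of this family, had 76.9, 132 and 144 CPM in WT and 52.6, 29.1 and 91.3 CPM in KO libraries, and only KO replicate 3 reached into the WT range. Its log2 fold change was -1.03 (SE 0.41, FDR = 0.12).

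J proteins were the most numerous members, with 39 tested of 45. Of these 3 rose, 1 fell and 35 did not pass the test, and their median log2 fold change was -0.02. Among the risers, Dnajb14 and Dnajb12, are related J proteins anchored in the ER membrane with their J domain in the cytosol. Dnajb14 had 9.42, 10.6 and 13.9 CPM in WT and 21.8, 23.5 and 19.6 CPM in KO libraries. Its log2 fold change was 0.93 (SE 0.18, FDR = 0.0134), and the groups did not overlap.

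Dnajb12 had 45.6, 46.6 and 49.8 CPM in WT and 56.7, 58.8 and 60.9 CPM in KO libraries. The groups again lay apart, but the difference was small, 0.31 on the log2 scale (SE 0.08, FDR = 0.0422). It was called in 4 of the 15 alternatives, and Dnajb14 in 13. Dnajb14 was lost without WT replicate 1 or 2, and Dnajb12 without any one of the 6 libraries. No miR-142 match was present in the 3′ UTR of Dnajb12.

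Dnajc25 (chr4:58995062-59025573), a membrane-spanning J protein, was a low-expressed gene with 4.31, 4.67 and 5.31 CPM in WT and 7.22, 9.08 and 8.83 CPM in KO libraries. The log2 fold change was 0.81 (SE 0.19, FDR = 0.0267). All KO values lay above all WT values. The call was lost without any WT replicate and without KO replicate 3, 9 of 15 alternatives keeping it. Of the 51-base stretches of its exons 7.28% also occur in another annotated gene.

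Dnajb5, a cytosolic J protein, was the member that fell. It had 19.4, 19.3 and 17.5 CPM in WT and 11.9, 10.3 and 13.5 CPM in KO libraries, with every KO library below every WT library. The log2 fold change was -0.66 (SE 0.15, FDR = 0.0224). It was called in 11 of 15 alternatives and was lost without any one of the 3 WT replicates.

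The J proteins that work with Hspa5 inside the ER were not called. Dnajb11 and Dnajc10 had log2 fold changes of 0.21 (FDR = 0.204) and 0.20 (FDR = 0.127). Dnajc3 (p58IPK) was nearly level, at 195, 194 and 197 CPM in WT and 192, 192 and 189 CPM in KO libraries (-0.03, 95% confidence interval -0.20 to 0.13). Dnajb9, an unfolded protein response target, ran from 16.4 to 94.8 CPM among the WT libraries alone.

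**Figure D2:**
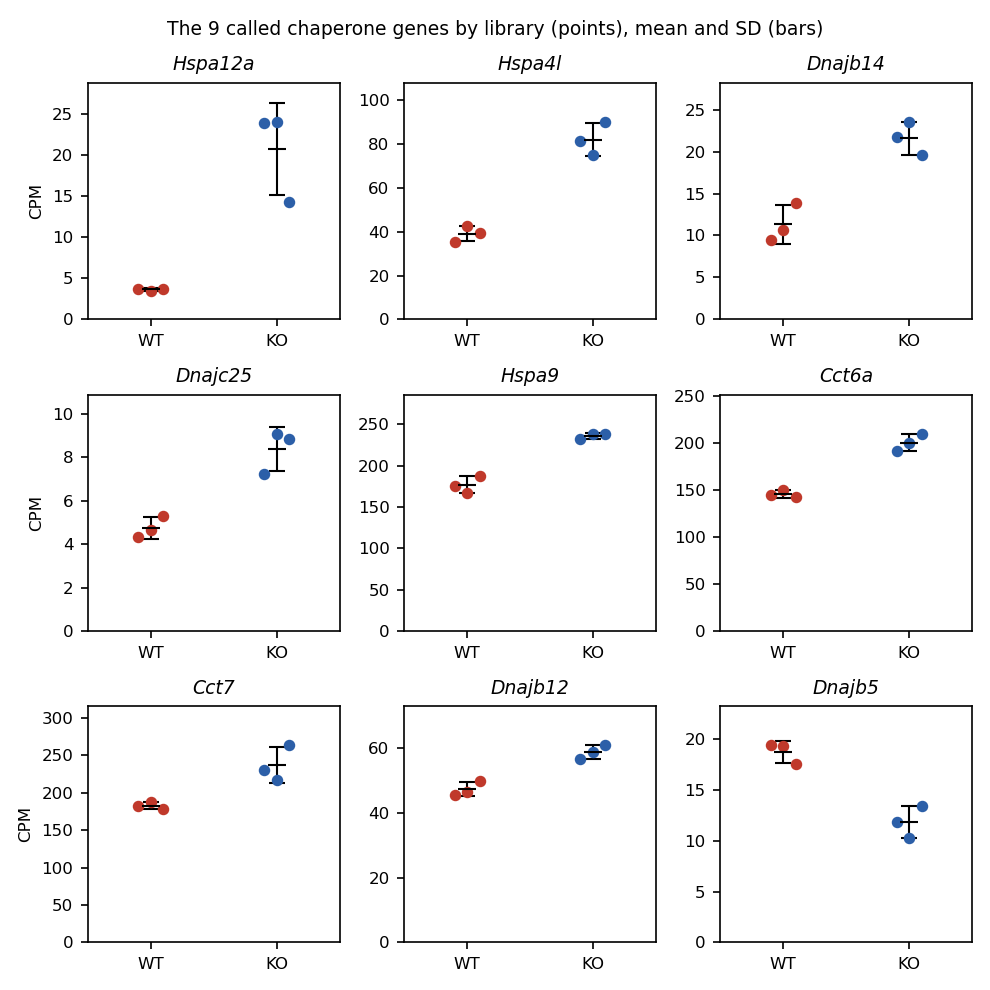
CPM of the 9 called members (vertical axes, starting at 0, each with its own range) in the 3 WT (red) and 3 KO (blue) libraries, with mean and SD as bars. In each panel the KO points lie apart from the WT points, from 14.3 to 24.0 CPM against 3.48 to 3.76 CPM for Hspa12a.

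The CCT ring is built of 8 different subunits, and all 8 were tested. Every subunit had a positive log2 fold change, as did 51.8% of all tested genes, from 0.03 for Cct8 to 0.46 for Cct6a, with a median of 0.19. With libraries scaled by size alone, Tcp1 and Cct8 turned to -0.01 and -0.05. Cct6a and Cct7 passed the test, 25.0% of the subunits against 11.6% of all tested genes called higher, and for 5 of the 8 subunits all KO libraries lay above all WT libraries, against 22.2% of all tested genes. The summed level of the ring was 1745, 1765 and 1716 CPM in WT and 1939, 1955 and 2171 CPM in KO libraries, or 1742 ± 24.9 against 2022 ± 130 CPM (SD, n = 3 per group). KO replicate 3 held the highest level of Cct3, Cct4, Cct5, Cct6a, Cct7 and Cct8.

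Cct6a, the zeta subunit, had 144, 150 and 143 CPM in WT and 192, 200 and 210 CPM in KO libraries, a log2 fold change of 0.46 (SE 0.08, FDR = 0.00872). Its call was lost without WT replicate 3 and held in the other 14 alternatives. Of the 51-base stretches of its annotated exons 15.3% also occur in other annotated genes, mostly in Psph. Cct7, the eta subunit, had 182, 188 and 178 CPM in WT and 231, 217 and 263 CPM in KO libraries, and its log2 fold change was 0.37 (SE 0.10, FDR = 0.0352). It was called in 7 of 15 alternatives and was lost when any library other than KO replicate 2 was left out.

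The other subunits changed less. Cct5 and Cct2 had log2 fold changes of 0.30 (FDR = 0.0789) and 0.21 (FDR = 0.109), both with KO above WT in all libraries. Cct3 and Cct4 had 0.17 (FDR = 0.268) and 0.14 (FDR = 0.324). For Tcp1 the values were 164, 167 and 168 CPM in WT and 182, 164 and 175 CPM in KO libraries, overlapping. The 95% confidence intervals were 0.28 to 0.64 for Cct6a and -0.17 to 0.22 for Cct8, and the difference between subunits was not tested.

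**Figure D3:**
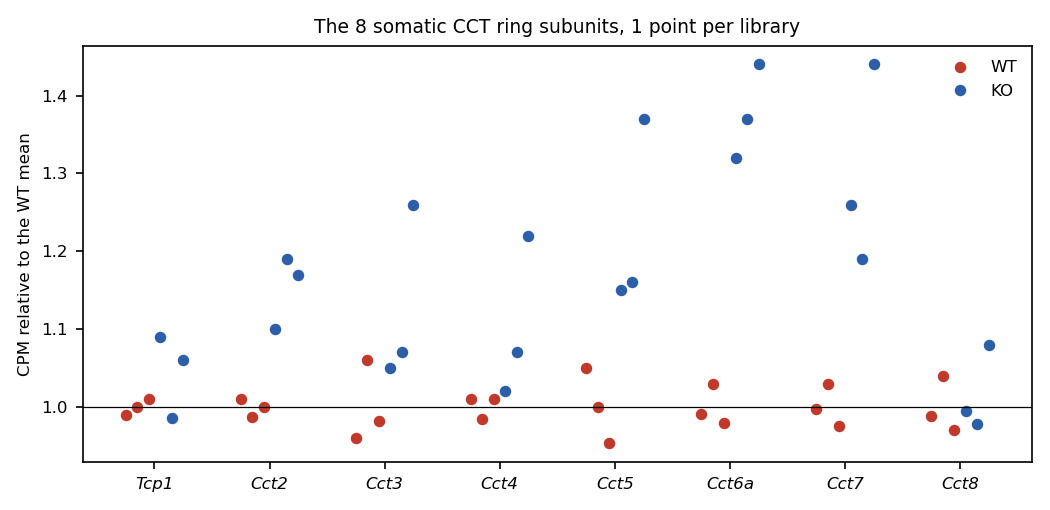
CPM of the 8 CCT subunits in each library divided by the mean of the 3 WT libraries of that gene (vertical axis), WT in red and KO in blue, replicates 1 to 3 from left to right. The KO points reach 1.44 for Cct6a and Cct7, and lie between 0.978 and 1.08 for Cct8.

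Heat-inducible members varied widely between libraries of 1 genotype. Hspa1b, the inducible Hsp70, had 26.5, 73.0 and 30.8 CPM in WT but 1.39, 0.681 and 61.6 CPM in KO libraries. KO replicates 1 and 2 were thus far below all WT libraries, at 25 and 9 counts, whereas KO replicate 3, at 900 counts, lay inside their range. The log2 fold change was -1.04 (SE 1.32, FDR = 0.619). Hspa1a, its near-identical neighbour (chr17:34969190-34972156), showed the same order, with 5.67, 23.0 and 9.74 CPM in WT and 1.28, 0.151 and 19.2 CPM in KO libraries. The pair share 66.1% and 62.0% of their 51-base exon stretches with other genes, mostly with each other, so the split of reads between them is uncertain. Summed over both, the levels were 32.2, 96.0 and 40.5 CPM in WT and 2.66, 0.833 and 80.8 CPM in KO libraries.

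Without KO replicate 3, Hspa1b, Hspa1a and Hsph1 were called lower in the QLF test, with log2 fold changes of -5.36 (FDR = 0.00937), -4.08 (FDR = 0.0402) and -1.54 (FDR = 0.0425). They were called in no other alternative. KO replicate 3 was the highest KO library for 30 of the 68 members (44.1%, against 28.6% of all tested genes), among them Dnaja1, Hsp90aa1, Hsp90ab1, Dnajb1 and Hspa8. Dnajb4 was highest in KO replicate 2 (36.9 CPM, against 19.2 CPM in KO replicate 3), Dnajb9 was lowest in KO replicate 3 (27.5 CPM, against 41.9 and 48.7 CPM), and Hspe1 was highest in KO replicate 1 (17.9 CPM).

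Dnaja1 and Dnajb1, the main cytosolic J proteins of the heat shock response, had log2 fold changes of -0.92 (FDR = 0.157) and -0.55 (FDR = 0.190). Dnaja1 ran from 42.3 CPM in WT replicate 1 to 143 CPM in WT replicate 3, and from 36.3 to 58.0 CPM among the KO libraries. For Dnajb1 the WT libraries held 101, 179 and 179 CPM and the KO libraries 86.6, 88.5 and 138 CPM. Hsp90aa1, the inducible Hsp90, had 62.4, 103 and 151 CPM in WT and 68.7, 55.3 and 85.7 CPM in KO libraries, a log2 fold change of -0.59 (FDR = 0.218). Its constitutive relative Hsp90ab1 had 1362, 1897 and 2031 CPM in WT and 1332, 1166 and 1701 CPM in KO libraries (-0.33, FDR = 0.269). In all 4 genes the groups overlapped.

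A more than 2-fold range within the 3 WT libraries was seen for 8 of the 68 members, 11.8% against 4.36% of all tested genes, as a description. These were Hspa1a, Hspa1b, Dnaja1, Hsp90aa1, Dnajb4, Dnajb9, Hspa2 and Hspa1l. Of the 8, 7 were lowest in WT replicate 1, and the same share over all tested genes was not computed. Among the KO libraries 7 members spread as widely, 10.3% against 12.5% of all tested genes. A list of 17 immediate early genes, which respond to stimulation and handling, summed to 2703, 8053 and 11840 CPM in WT replicates 1, 2 and 3 and to 5785, 8062 and 7415 CPM in KO replicates 1, 2 and 3, so WT replicate 1 was lowest there too. The part of handling in the chaperone values was not tested.

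**Figure D4:**
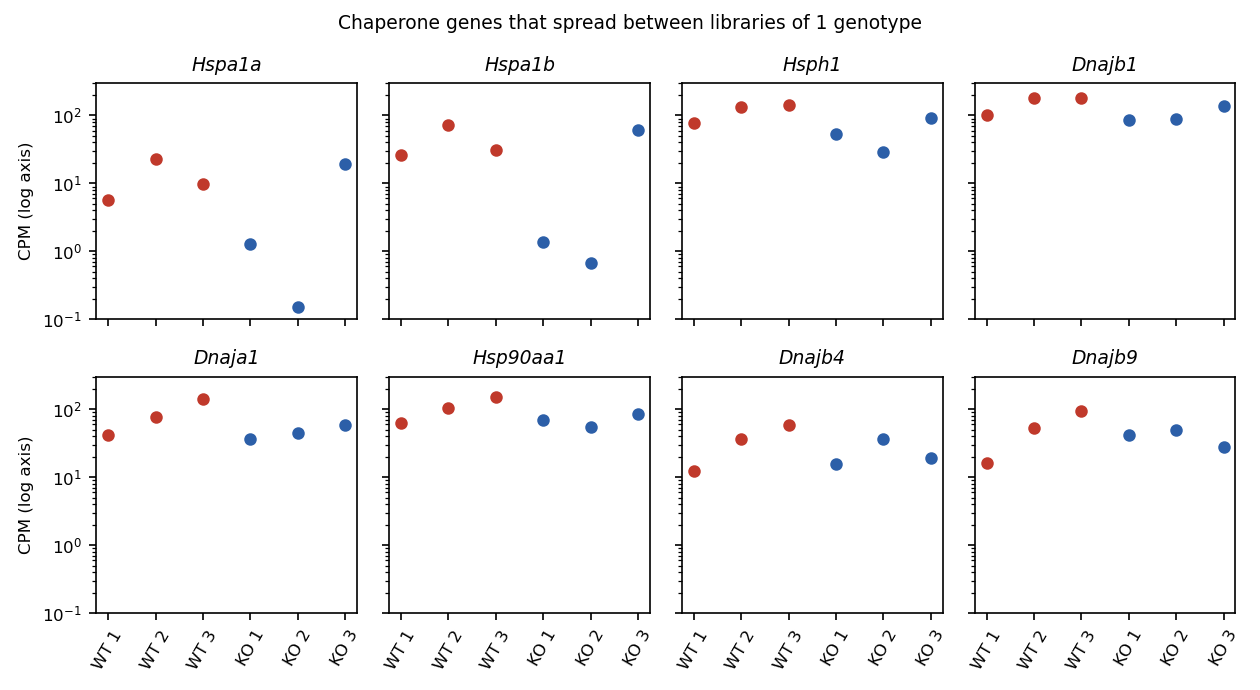
CPM (vertical axes, logarithmic, shared) of 8 members in each WT (red) and KO (blue) library. Hspa1a and Hspa1b fall to 0.151 and 0.681 CPM in KO replicate 2 and reach 19.2 and 61.6 CPM in KO replicate 3, while Dnaja1, Hsp90aa1, Dnajb4 and Dnajb9 are lowest in replicate 1 and highest in replicate 3 of the WT libraries.

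Promoters were read from RefSeq (GRCm38.p6, 250 bases before to 50 after each start) for 68 of the 83 members. The heat shock element was searched as GAA and TTC units in alternation, 3 units each separated by 2 bases, on both strands, and was found in 0.662% of the genes with a promoter. It occurred in 4 members, Hspd1, Hspe1, Hsph1 and Dnajb6, in Hsph1 after the start site. Hsp90aa1, Hsp90ab1, Hspa8 and Hspa9 had no promoter entry and were not searched. Hspa1a, Hspa1b, Dnaja1 and Dnajb1 were searched and held no match. This search took perfect units only, so it does not show that a gene lacks heat shock elements. Hspd1 and Hspe1 start head to head and their promoter windows overlap, so their match is the same one. It is shown on the Hspe1 strand because it consists of overlapping elements, 18 bases in all (capitals), 5′ to 3′.
Hspe1 and Hspd1, chr1:55088039-55088096, plus strand: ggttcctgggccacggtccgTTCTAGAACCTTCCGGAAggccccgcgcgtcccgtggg
Hsph1, element at chr5:149636288-149636300, minus strand: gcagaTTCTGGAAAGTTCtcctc
Dnajb6, element at chr5:29735852-29735864, plus strand: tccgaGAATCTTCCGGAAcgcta

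Across libraries the divergent pair kept a common order in part. Hspd1 had 58.6, 73.9 and 88.5 CPM in WT and 66.4, 53.4 and 73.4 CPM in KO libraries, and Hspe1 had 16.8, 24.6 and 23.6 CPM in WT and 17.9, 13.8 and 17.4 CPM in KO libraries. Both were lowest in KO replicate 2. Hspd1 shares 41.6% of its 51-base exon stretches with other annotated genes, chiefly a pseudogene. Dnajb6, with the same kind of element, was steady among the WT libraries, at 16.6, 17.2 and 16.3 CPM. In the KO libraries it had 16.9, 21.1 and 15.9 CPM.

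The ER stress response element was searched as CCAAT and CCACG separated by 9 bases, on both strands, and occurred in 0.137% of genes with a promoter. Hspa5, Hsp90b1 (Grp94, the Hsp90 of the ER) and Dnajc3 held it, and all 3 proteins act inside the ER. Capitals mark the element including its 9-base spacer.
Hspa5, element at chr2:34772025-34772043, plus strand: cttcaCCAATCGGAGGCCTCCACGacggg
Hsp90b1, element at chr10:86705638-86705656, minus strand: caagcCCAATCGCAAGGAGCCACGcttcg
Dnajc3, element at chr14:118937827-118937845, plus strand: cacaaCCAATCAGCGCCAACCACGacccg

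Although they share this element, the 3 genes varied to different degrees. Dnajc3 stayed between 189 and 197 CPM in all 6 libraries. Hsp90b1 had 366, 466 and 413 CPM in WT and 555, 336 and 479 CPM in KO libraries, a log2 fold change of 0.14 (SE 0.19, FDR = 0.640) that turned to -0.04 without KO replicate 1. A second copy of the element lies in the Hsp90b1 promoter on the opposite strand.

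Shares of genes with a miR-142 match are given as a description, with no test. A miR-142a-3p site of either start position was present in 12 of the 67 tested members with an annotated 3′ UTR (17.9%), and in 22.6% of 11116 tested genes. For miR-142a-5p the shares were 22.4% and 23.5%. Any site was present in 21 tested members, of which 4 were called higher and 0 lower in the QLF test, with a median log2 fold change of 0.05 (0 were lower at an unadjusted p under 0.05, and 0 with DESeq2). These 4 are 19.0% of the 21, against 16.0% called higher among all 4153 tested genes with a site (median 0.05). Of the 46 tested members whose 3′ UTR held no site 3 were called higher (6.52%) and 1 lower, against 9.41% called higher among all 6963 such genes. Cct6a had no annotated 3′ UTR and was not searched. The 4 risers with a site were Hspa12a, Hspa4l, Dnajb14 and Dnajc25, and those without one were Hspa9, Cct7 and Dnajb12. The former ranged from 0.81 to 2.50 on the log2 scale and the latter from 0.31 to 0.42, a contrast of genes picked by their calls that was not tested.

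Matches of the same kind were present in members that did not rise, and 3 of them are shown beside the risers. The J proteins Dnajb2 and Dnaja2 hold 8-base miR-142a-3p sites, the latter for the shifted seed, and Dnaja1 holds an 8-base miR-142a-5p site.
Dnajb2, miR-142a-3p site of 8 bases, chr1:75244876-75244883, plus strand: aggagggaACACTACAttcctctc
Dnaja2, shifted miR-142a-3p site of 8 bases, chr8:85538478-85538485, minus strand: agttaaatAACACTAAtgttggtt
Dnaja1, miR-142a-5p site of 8 bases, chr4:40735431-40735438, plus strand: tgaacctgACTTTATAaggaagtc
Dnajb2 had 21.7, 19.1 and 21.2 CPM in WT and 17.7, 14.5 and 20.3 CPM in KO libraries, a log2 fold change of -0.24 (SE 0.15, FDR = 0.305). Dnaja2 changed by 0.12 (SE 0.08, FDR = 0.346). The single Hspa12a site has 7 matching bases and lies at position 3497 of a 3′ UTR of 3611 bases. Whether any of these sites acts was not tested.

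Partners of the chaperones were read from 4 lists of 95 genes that are not members, of which 91 were tested. In the QLF test 13 partners rose and 5 fell in KO libraries, 19.8% against 18.8% of all tested genes. Of 33 tested ER chaperones and unfolded protein response genes 7 were higher (21.2%, against 11.6% of all tested genes) and 0 lower, 27 had a positive value (81.8%, against 51.8%), and their median was 0.21 (0 were lower at an unadjusted p under 0.05, and 10 higher and 0 lower with DESeq2). Of 31 cytosolic co-chaperones and heat shock factors 4 were higher and 4 lower, with a median of -0.04. Among 15 prefoldin, tubulin cofactor and phosducin-like partners of CCT 2 were higher and 1 lower. Of the 12 mitochondrial chaperones and proteases 0 were called by the QLF test of edgeR, 3 had an unadjusted p under 0.05, and DESeq2 called 1.

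The ER genes with the smallest p-values were Ern1 (Ire1α, a sensor of unfolded proteins), Txndc5 (a protein disulfide isomerase), and Herpud1 and Sel1l, which serve the removal of misfolded proteins from the ER. Ern1 had 16.6, 14.5 and 13.1 CPM in WT and 36.6, 27.6 and 41.2 CPM in KO libraries, a log2 fold change of 1.26 (SE 0.18, FDR = 0.00490). Txndc5 had 81.1, 62.0 and 72.9 CPM in WT and 159, 126 and 132 CPM in KO libraries (0.95, SE 0.13, FDR = 0.00491). Herpud1 and Sel1l rose by 0.63 (SE 0.09) and 0.49 (SE 0.07). KO and WT libraries were fully separated for all 4 genes, and their calls held in all 15 alternatives. Markers of plasma cells, which are rich in ER chaperones, summed to 204 to 217 CPM in WT and to 459, 312 and 337 CPM in KO replicates 1, 2 and 3. Their list shares Txndc5, Xbp1 and Derl3 with the ER list. Most of this sum was Txndc5 and Xbp1 in every library, and the other markers were not summed apart from them. Of the 8 plasma cell markers matched, 7 were highest in KO replicate 1 and 1 had 0 counts in all libraries. Xbp1 had 77.0, 78.2 and 97.9 CPM in WT and 112, 103 and 103 CPM in KO libraries. The part of plasma cells in the ER values was not tested.

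Among the cytosolic partners, Fkbp5, an immunophilin that binds Hsp90 with the glucocorticoid receptor, rose most. It had 121, 109 and 114 CPM in WT and 247, 299 and 448 CPM in KO libraries, a log2 fold change of 1.53 (SE 0.21, FDR = 0.00443). Its call held in all 15 alternatives. The genes that fell were Unc45a (-0.43), Pdcl (-0.47), Hsf4 (-1.22), Tomm34 (-0.40) and Chordc1 (-0.65), with FDR from 0.0168 to 0.0495. Pdcl codes for a phosducin-like partner of CCT and Unc45a and Chordc1 for Hsp90 co-chaperones, and Hsf4 was low, at 4.10 to 6.28 CPM in WT and 1.64 to 3.05 CPM in KO libraries. Leaving out 1 library ended the call of Unc45a for WT replicates 2 and 3, of Pdcl and Tomm34 for every library but KO replicate 2, of Hsf4 for every library but KO replicate 1, and of Chordc1 for WT replicates 2 and 3 and KO replicates 1 and 2.

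Hsf1 itself, the main heat shock factor, was not called. Its levels were 83.4, 97.8 and 95.3 CPM in WT and 65.7, 72.0 and 85.0 CPM in KO libraries, which overlapped through KO replicate 3 and WT replicate 1. The log2 fold change was -0.31 (SE 0.12, FDR = 0.110), and no alternative called it.

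Without KO replicate 1, the library with markers of other cell types, 7 members were called, and 17.3% of all genes tested then. Hspa12a, Hspa4l, Dnajb14, Dnajc25, Hspa9 and Cct6a remained called higher and Dnajb5 lower, while Cct7 and Dnajb12 did not. Leaving out WT replicate 1, 2 or 3 left 3, 3 and 4 members called, with 8.87%, 5.98% and 6.85% of all genes.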

How the data were processed

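Splenic CD4+YFP+ Treg cells of 3 WT and 3 KO mice were profiled by RNA-seq (TruSeq, not strand-specific, 51-base single-end reads). The authors aligned reads to mm10 with HISAT and counted them per gene with featureCounts, ignoring strand. The values they deposited are raw counts. Versions of these tools are not given in the sources used here. Reads of a gene and of an overlapping or antisense gene can therefore not be told apart.

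The members and gene lists were chosen with earlier results of these data known. The filter kept genes above 1 CPM in 3 or more libraries. Counts were TMM-normalized and fitted in edgeR 4.0.16 (R 4.3.3), and QLF p-values were adjusted by Benjamini-Hochberg over all 11658 genes tested (FDR under 0.05). CPM values are TMM-normalized, RPKM values are CPM per kilobase of the union of GENCODE vM21 exons, and intervals are 95%. P-values measure the spread between 3 mice per group. Alternatives were RLE size factors, library size alone, other filters, DESeq2 1.42.0, the likelihood ratio and exact tests, robust estimation, a replicate block, a stricter threshold and leaving out each library. Promoters and mature miRNAs were from RefSeq, and 3′ UTRs from GENCODE vM21 (GRCm38, the build that mm10 names), in which all 83 members were matched. Named were 25 members with known roles, the called members, the 5 partner genes with the smallest p-values per direction, and, after their values were seen, Dnajb2, Dnajb4, Dnajb6, Dnajb11, Dnajc10, Dnaja2, Hspa2, Hspa1l and Hsf1. The test was checked on simulated counts before use. These had the same dispersion for every gene and less spread than the data, so the check does not cover the spread seen here. Protein sequences were not used here.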

Additional observations from a re-analysis of the deposited data

How the results depend on the processing

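The number of called members, 9, was 6 to 10 under other normalizations, filters and tests. Without a low-count filter, 5 members were higher, and 10 partner genes were called in place of 18. An FDR under 0.01 left 3 called members, 3 higher and 0 lower, and 6 partner genes. Leaving out 1 library gave 3 to 9 called members, 3 to 7 higher and 0 to 4 lower, and 5 to 18 partner genes. DESeq2 added Cct5 (0.29, adjusted p = 0.0442). The replicate block gave 5 called members, 5 higher and 0 lower, and 9 partner genes. The labels do not say whether replicate numbers pair the mice. Same-numbered libraries had correlations of 0.07, -0.01 and -0.19 in their deviations. Differently numbered libraries ranged from -0.17 to 0.20, so these values cannot decide whether the mice were paired. Scaling by library size alone moved the members' median from 0.02 to -0.06, and that of all genes from 0.02 to -0.06, and turned Tcp1 to -0.0128 and Cct8 to -0.0502. Leaving out 1 library gave log2 fold changes from -0.37 to 0.16 for Hspa8, -0.33 to 0.15 for Hspa5, -0.0408 to 0.33 for Hsp90b1, -0.94 to 0.16 for Dnajb9 and -0.0355 to 0.0613 for Cct8. Of 704 values recomputed, 626 kept direction and side of the threshold, 64 weakened, 4 strengthened and 10 reversed. These values pool called genes with genes not called. Only a called gene could weaken, so all 64 lost calls belong to called genes, and the 626 do not measure how well calls held. The causes were not tested. There were 3 mice per group, and the common biological coefficient of variation was 0.212. This value does not describe Hspa1a and Hspa1b, whose KO libraries differed 126.5-fold and 90.4-fold. For these members even large changes could go undetected. The confidence intervals of their log2 fold changes ran from -3.8 to 2.0 for Hspa1a and from -4.1 to 2.1 for Hspa1b.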
